A study of Rattus norvegicus with 6 samples.

Results

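The AP-1 factors Fos, Fosl1, Fosl2, Jun, Junb and Jund and the immediate early genes Egr1, Klf4, Atf3 and Ier2 were followed in rat UMR106-01 cells, an osteosarcoma line with osteoblast properties, with and without the serine protease inhibitor AEBSF. Probe sets were taken where the platform annotation gave exactly 1 symbol and that symbol was one of these 10 genes. The rule found 16 probe sets for the 10 genes, of 31042 probe sets other than controls on the array. Of these, 6 genes had 1 probe set each, and Fos, Fosl2, Jun and Jund had several. The AEBSF group was 3 cultures given 400 µM AEBSF along with 6.5 mM beta-glycerol phosphate, from which mineral phosphate is released. The mineralizing group was 3 cultures given beta-glycerol phosphate alone. All 6 cultures grew in 10% fetal bovine serum, were re-fed at 64 h after plating and were collected at 76 h, so AEBSF was present for 12 h. Each culture gave 1 array, and a tumour line of 1 origin stands for osteoblasts in both groups. The design sets the 3 AEBSF cultures against the 3 mineralizing cultures and addresses what changes when the inhibitor is given together with the phosphate source.

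AP-1 is a dimer of leucine zipper proteins. Jun proteins can pair with each other or with Fos proteins, whereas Fos proteins bind DNA only with a partner. Immediate early genes are so called because serum, growth factors and stress raise their transcripts within minutes, before any new protein is needed, and the transcripts are short-lived. Not every AP-1 gene behaves in this way, and Jund is also carried by cells at rest. Ternary complex factors and the serum response factor SRF carry the growth-factor signal from the MAP kinase ERK to Fos and Egr1, and the kinase JNK acts on Jun and Atf3. In mouse bone, Fos family members are known to govern osteoclast formation and osteoblast matrix production.

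With AEBSF, Fos, Jun and Klf4 fell by about the same amount, each on its brightest probe set, and none of the 9 genes with a tested brightest probe set rose. Fos 1375043_at fell 1.23-fold, Jun 1389528_s_at fell 1.23-fold and Klf4 1387260_at fell 1.21-fold. The other Jun probe sets did not pass, and 1374404_at had the opposite sign (log2 fold change 0.20). The Fos call held under only 5 of 16 alternatives. Of the 16 probe sets 12 were tested, meaning that their mean signal lay above the 40th percentile of all probe sets, a signal of 67.2. Limma called 3 of these 12 lower and 0 higher at a Benjamini-Hochberg adjusted p of 0.05, and 9 did not pass. Over all 18625 tested probe sets the same rule called 13.4%, of which 7.41% were lower and 5.99% higher with AEBSF. The median log2 fold change was -0.17 over the 12 and 0.01 over all tested probe sets, and 10 of the 12 values lay below 0. The 2 groups did not overlap on 3 of the 12 probe sets, the called ones, against 32.7% of all tested probe sets. Constant-prior limma, which ignores that dim probe sets vary more, called 0 of the 12, with adjusted p = 0.0571 for Fos 1375043_at, 0.0537 for Jun 1389528_s_at and 0.0849 for Klf4. The count of falls was 1 without any one of mineralizing cultures 1, 2 and 3.

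**Figure D1:**
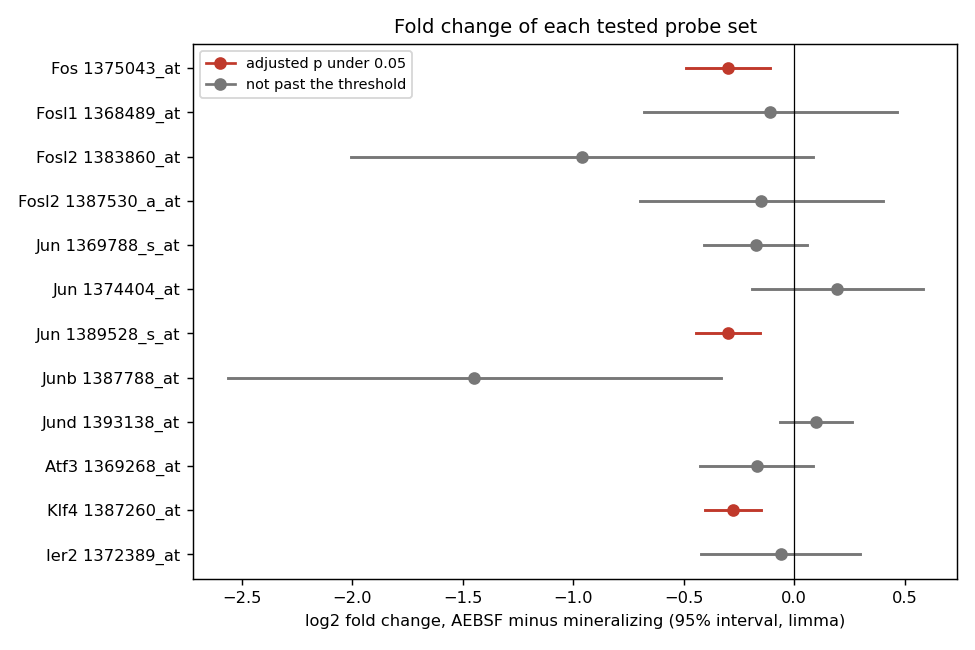
Log2 fold change (AEBSF minus mineralizing, x axis) of the 12 tested probe sets, with 95% intervals from limma; red marks an adjusted p under 0.05. The 3 red points lie between -0.30 and -0.28, while Junb at -1.45 and Fosl2 1383860_at at -0.96 have the widest intervals.

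The labelled cell type was checked on its markers. Of 9 osteoblast markers measured 8 were bright enough to be tested, with Ibsp at 17100 ± 251 in AEBSF cultures and 16520 ± 750 in mineralizing cultures (SD, n = 3 each), Alpl at 2113 ± 159 and 2186 ± 33.2, and Col1a1 at 617 ± 61.5 and 982 ± 91.2. Runx2 and Sp7, also listed, had no probe set with exactly 1 such symbol. Limma called 3 of the 8 lower and 0 higher, 37.5% of those tested. Beside this, 16.3% of all tested genes were called, 9.22% lower and 7.09% higher. The median log2 fold change of the 8 was -0.18, with 7 of 8 below 0. The 3 falls were the collagen chains Col1a1 (-0.67, limma adjusted p = 0.00116) and Col1a2 (-1.13) and the phosphate regulator Phex (-0.73). Col1a2 and Phex are named after their values were seen. Each of these falls was larger than those of Fos, Jun and Klf4. Bglap, which encodes osteocalcin, was below the filter, at 4.8 ± 2.5 in AEBSF cultures and 1.95 ± 0.47 in mineralizing cultures. Of 30 markers of leukocytes, endothelium, muscle, adipocytes and chondrocytes, 4 were tested, 0 passed in limma, and the highest group mean was 120.2. The summed signal of the leukocyte list ran from 224 to 256 in AEBSF cultures and from 215 to 328 in mineralizing cultures. The 3′ to 5′ ratio of the beta-actin control probe sets ran from 1.46 to 1.61 in AEBSF cultures and from 1.52 to 1.54 in mineralizing cultures. The hybridization controls, which are added in equal amount to every array, had a geometric mean signal of 1749 to 1976 on AEBSF arrays and 1535 to 1770 on mineralizing arrays. Scaled to those controls, all tested probe sets had a median log2 fold change of -0.16, with calls of 90 higher and 2670 lower, against 1115 higher and 1380 lower in the values as deposited. Changes are therefore given relative to the other probe sets on the array, and in RNA from whole cultures a smaller number of expressing cells and less RNA per cell cannot be told apart.

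**Figure D2:**
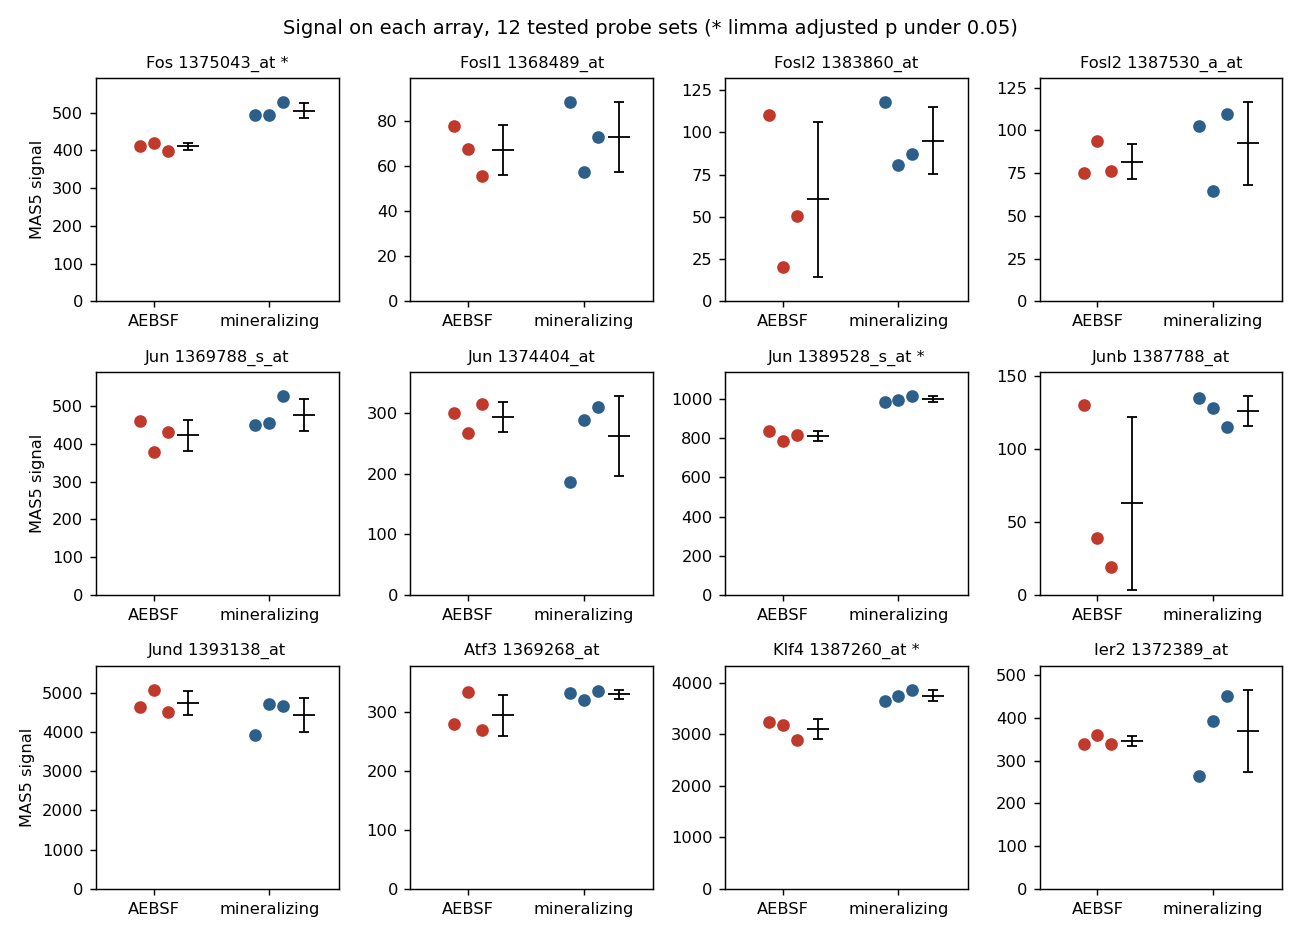
MAS5 signal (y axis, linear from 0) of the 12 tested probe sets on each AEBSF array (red, left) and mineralizing array (blue, right), with the mean and SD of 3 arrays as a bar; a star marks a limma adjusted p under 0.05. In the 3 starred panels all AEBSF values lie below all mineralizing values, and in the other 9 panels the groups overlap.

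Fos, the founding partner of Jun in AP-1, had signals of 413, 419 and 399.6 on probe set 1375043_at in AEBSF cultures, against 494, 494 and 528 in mineralizing cultures. The groups did not overlap, and the replicates within each group lay close together. The means were 411 ± 9.88 and 505 ± 19.4 (SD, n = 3 each), a log2 fold change of -0.30 (SE 0.09, 95% interval -0.49 to -0.11, limma adjusted p = 0.0434). This call rested on a narrow margin: limma passed it under 5 of 16 alternatives, with adjusted p from 0.0169 to 0.135, and without any single array it ran from 0.0661 to 0.135. A value lower than that of Fos was found in 11.5% of all tested probe sets. The other Fos probe set, 1371283_at, lay below the signal filter, with 7.32, 38.6 and 14.3 in AEBSF cultures and 42.8, 21.1 and 42.0 in mineralizing cultures, and was not tested.

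Fosl1 encodes FRA-1, a Fos relative known in mice to promote bone matrix formation. It stood just above the filter at 77.8, 67.4 and 55.7 in AEBSF cultures and 88.2, 57.1 and 72.7 in mineralizing cultures. These ranges overlapped (log2 fold change -0.11, 95% interval -0.68 to 0.46, limma adjusted p = 0.828). Fosl2, which encodes FRA-2, had 75.04, 93.6 and 76.4 on probe set 1387530_a_at in AEBSF cultures and 102.6, 64.8 and 109.7 in mineralizing cultures, also overlapping (log2 fold change -0.15, 95% interval -0.70 to 0.40, limma adjusted p = 0.745). Its probe set 1383860_at had 110.4, 20.1 and 50.5 in AEBSF cultures and 118, 80.4 and 87.2 in mineralizing cultures, where AEBSF culture 1 lay within the mineralizing range and the other two below it. That difference of -0.96 (95% interval -2.01 to 0.09) did not pass (limma adjusted p = 0.214), and it moved with single arrays: it was -1.56 without AEBSF culture 1 (adjusted p = 0.0364) and -0.33 without AEBSF culture 2 (adjusted p = 0.577). It passed with scaling to the hybridization controls (-1.13, adjusted p = 0.0334), and adding 64 to each signal reduced it to -0.41 (adjusted p = 0.237). The intervals of Fosl1 and of Fosl2 1387530_a_at extend, in either direction, past a change as large as the fall of Fos.

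Jun, an AP-1 member that can also act as a homodimer, was measured by 3 probe sets, and they did not give the same answer. Probe set 1389528_s_at had 835, 785 and 818.5 in AEBSF cultures, against 985, 996 and 1015 in mineralizing cultures. All AEBSF values lay below all mineralizing values, with means of 813 ± 25.5 and 998.5 ± 15.1 (SD, n = 3 each; log2 fold change -0.30, SE 0.07, 95% interval -0.44 to -0.15, limma adjusted p = 0.0141). Leaving out mineralizing culture 1, 2 or 3 lost the call by a small margin (limma adjusted p = 0.0506, 0.0534 and 0.0531). Probe set 1369788_s_at had 459, 379 and 431 in AEBSF cultures and 449.5, 455 and 526 in mineralizing cultures. Its groups overlapped and its difference had the same sign but did not pass (log2 fold change -0.17, 95% interval -0.41 to 0.06, limma adjusted p = 0.316). Probe set 1374404_at had 299.7, 266 and 314 in AEBSF cultures and 186, 288 and 310.3 in mineralizing cultures, with a difference of the opposite sign that did not pass (log2 fold change 0.20, 95% interval -0.19 to 0.58, limma adjusted p = 0.509). Mineralizing culture 1 was the low value there, and without it the difference was -0.03.

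**Figure D3:**
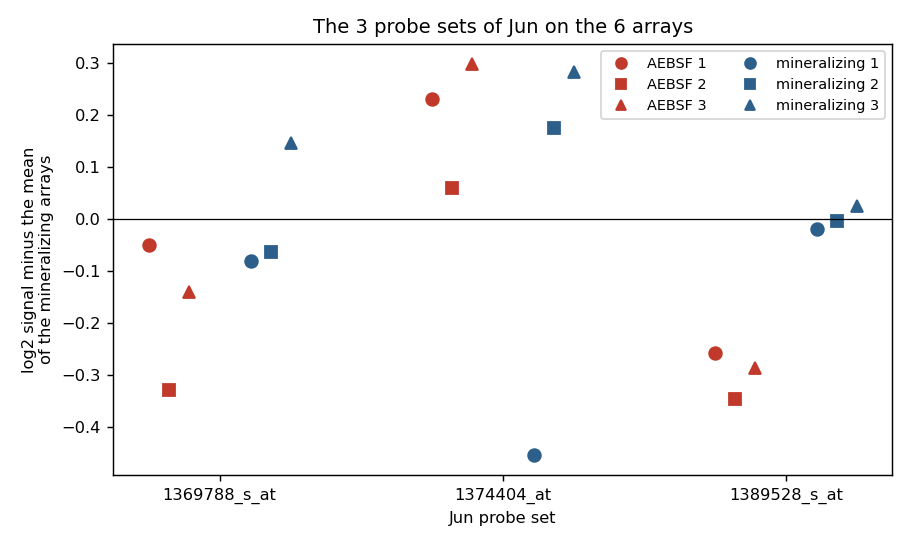
Log2 signal of the 3 Jun probe sets (x axis) on each array, relative to the mean of the mineralizing arrays for that probe set (y axis); colour gives the group and marker shape the culture number. On 1389528_s_at the 3 AEBSF points lie together below the mineralizing points, on 1369788_s_at the groups overlap, and on 1374404_at mineralizing culture 1 stands far below the rest.

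The disagreement was measured within arrays, where the 3 probe sets see the same RNA. The log2 signal of 1374404_at minus that of 1389528_s_at was -1.48, -1.56 and -1.38 on AEBSF arrays, against -2.40, -1.79 and -1.71 on mineralizing arrays. The groups did not overlap and differed by 0.49, with an exact two-sided permutation p = 0.1, the smallest that 3 against 3 arrays allow. Leaving out mineralizing culture 1 brought this difference to 0.28. The log2 signal of 1369788_s_at minus that of 1374404_at averaged 0.53 ± 0.08 on AEBSF arrays and 0.90 ± 0.33 on mineralizing arrays (SD, n = 3 each), a difference of -0.37 (exact permutation p = 0.1). The 2 probe sets with the _s_at ending, the array maker's mark for probes shared by several transcripts, differed from each other by 0.12 between the groups (exact permutation p = 0.2), and their fold-change intervals overlapped. With 6 such within-array comparisons in all, the adjusted p was 0.12 for 5 and 0.2 for 1, so none passed. The platform annotation credits 1374404_at and 1389528_s_at to the same transcript record, and which probes of the gene each holds is not given in the sources used here.

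Junb, a Jun relative that is known to restrain cell division, gave 130.2, 39.0 and 19.4 in AEBSF cultures and 135, 128.5 and 115 in mineralizing cultures. AEBSF culture 1 lay inside the mineralizing range and the other two lay far below it, under the signal of 67.2 that marks the filter. The log2 fold change of -1.45 was the lowest of the 12 and wide (SE 0.51, 95% interval -2.56 to -0.33), and it did not pass (limma adjusted p = 0.084). Without AEBSF culture 1 it was -2.19 (limma adjusted p = 0.00346), without AEBSF culture 3 it was -0.82 (limma adjusted p = 0.221), and with scaling to the hybridization controls it was -1.61 (limma adjusted p = 0.00235). Adding 64 to each signal reduced it to -0.68.

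Jund, the Jun relative that cells at rest also carry, stood at 4635, 5074 and 4503 on probe set 1393138_at in AEBSF cultures and 3933, 4709 and 4669 in mineralizing cultures. The groups overlapped, and the difference was small and narrowly bounded (log2 fold change 0.10, 95% interval -0.06 to 0.26, limma adjusted p = 0.427), turning to -0.07 with scaling to the hybridization controls. The interval excludes a fall as large as that of Fos, Jun 1389528_s_at or Klf4. Its other probe sets, 1375768_at at 8.69 to 9.78 in AEBSF cultures and 7.29 to 14.3 in mineralizing cultures and 1387762_s_at at 47.0 to 70.4 and 16.3 to 79.9, lay below the filter and were not tested.

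The differences between these genes were then compared within arrays, a comparison chosen after their values were seen. The log2 signal of Fos minus that of Jund was -3.49, -3.60 and -3.49 on AEBSF arrays and -2.99, -3.25 and -3.15 on mineralizing arrays, so the Fos signal fell relative to Jund by 0.40 with no overlap. Jun 1389528_s_at differed from Jund by -2.54 ± 0.13 on AEBSF arrays and -2.15 ± 0.13 on mineralizing arrays, and Klf4 by -0.61 ± 0.09 and -0.24 ± 0.11 (SD, n = 3 each). The shifts were -0.40 for Jun and -0.37 for Klf4, each with an exact permutation p = 0.1, the smallest possible here, and 0.12 after adjustment over the 6 comparisons.

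Klf4 encodes a zinc finger factor known for cell-cycle arrest and for keeping cells undifferentiated. Its signals were 3247, 3172 and 2887 in AEBSF cultures, against 3647, 3750 and 3862 in mineralizing cultures. The groups did not overlap, with means of 3102 ± 190 and 3753 ± 108 (SD, n = 3 each; log2 fold change -0.28, SE 0.06, 95% interval -0.40 to -0.15, limma adjusted p = 0.0111). Klf4 passed under 15 of 16 alternatives, the exception being the constant variance prior, with log2 fold changes from -0.44 to -0.23.

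Atf3, a stress-induced leucine zipper factor that pairs with Jun proteins, had 279.6, 333 and 269 in AEBSF cultures and 332, 320.4 and 335 in mineralizing cultures. AEBSF culture 2 lay within the mineralizing range, and the other two lay below it (log2 fold change -0.17, 95% interval -0.42 to 0.09, limma adjusted p = 0.377). Ier2, a nuclear protein of the immediate early response, had 339.5, 361 and 339 in AEBSF cultures and 265, 393.5 and 452 in mineralizing cultures. Here it was the mineralizing arrays that lay far apart, with AEBSF values between them (log2 fold change -0.06, 95% interval -0.42 to 0.30, limma adjusted p = 0.85). Egr1, a zinc finger factor that ERK signalling induces through SRF, was below the filter at 47.1, 45.8 and 66.5 in AEBSF cultures and 25.4, 32.3 and 69.8 in mineralizing cultures, and was the one gene of the 10 with no tested probe set.

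How far replicates lay apart followed the signal. The within-group SD of log2 signal had a median of 0.30 in the dimmest 10% of all tested probe sets and 0.07 in the brightest 10%, and limma called 1.61% of probe sets among the dimmest 10% and 24.1% among the brightest 10%. Of the 12 tested probe sets, 4 (Junb, Fosl1 and both of Fosl2) fell in that dimmest class. Junb and Fosl2 1383860_at had an SD of 0.99 and 0.89, above the middle 50% of that class, which ran from 0.22 to 0.41. Fos 1375043_at and Jun 1389528_s_at had an SD of 0.05 and 0.04, below the middle 50% of probe sets of like signal (0.08 to 0.16 and 0.07 to 0.14), and Klf4 at 0.07 stood near the median of its own. Limma's variance prior draws such small spreads up towards the trend.

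**Figure D4:**
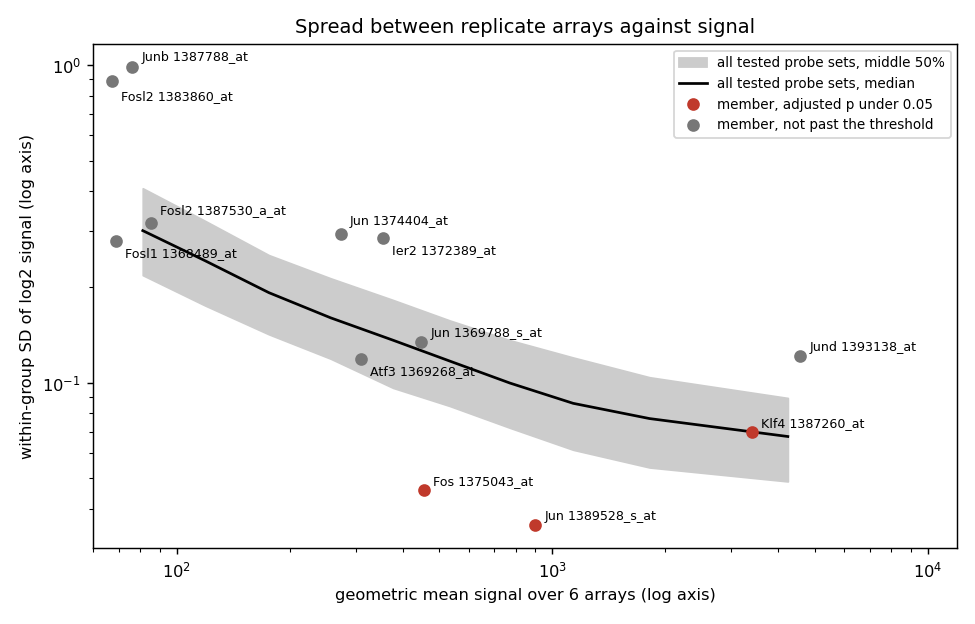
Within-group SD of log2 signal (y axis, log scale) against the geometric mean signal over 6 arrays (x axis, log scale) for the 12 tested probe sets; the line and grey band give the median and middle 50% of all tested probe sets in classes of 10% by signal, and red marks an adjusted p under 0.05. Junb and Fosl2 1383860_at stand far above the band at the dim end, Jun 1374404_at, Ier2 and Jund also lie above it, and Fos 1375043_at and Jun 1389528_s_at stand below it.

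Sequence before the gene start was available from the RefSeq promoter table of build GRCr8 for 7 of the 10 genes. Fos, Jun and Atf3 had none there, so of the genes called lower only Klf4 was searched. Immediate early promoters are known for the cyclic AMP response element, TGACGTCA, the AP-1 site, TGANTCA, and the CArG box that SRF binds, and these were searched on both strands in the 250 bases before the start, together with the GC box, GGGCGG. No motif overlaps another in these windows. The cyclic AMP element lay in 2 of the 7 windows, against 1.59% of 33469 windows of the same length, in Jund from 221 to 214 and in Ier2 from 66 to 59 bases before the start. The AP-1 site lay in 0 of 7 (6.34% of all windows), the CArG box in 1, with 2 copies in Egr1 (1.5% of all windows), and the GC box in 3, those of Fosl1, Fosl2 and Jund (30.5% of all windows). The 3 windows below are shown so that Klf4, which fell, can be read beside Jund and Ier2, which did not pass; capitals mark the cyclic AMP element. The Klf4 window, chr5:75078593-75078842 on the minus strand, held none of the 4 motifs. That window follows the start given in the promoter table, and where Klf4 transcription starts in these cells was not measured. The letters may therefore lie within the Klf4 transcript instead of before it, so the 3 windows may not be like stretches. Letters outside the window were not searched, so the absence does not extend to the Klf4 promoter as a whole. The Jund window is chr16:18769772-18770021 on the minus strand and the Ier2 window chr19:40399123-40399372 on the plus strand. A match is a run of letters and not a measured binding site.
Klf4: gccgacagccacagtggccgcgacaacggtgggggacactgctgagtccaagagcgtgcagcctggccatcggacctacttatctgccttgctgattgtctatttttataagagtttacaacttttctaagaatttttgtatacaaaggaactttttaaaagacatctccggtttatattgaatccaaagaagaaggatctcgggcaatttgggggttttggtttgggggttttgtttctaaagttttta
Jund: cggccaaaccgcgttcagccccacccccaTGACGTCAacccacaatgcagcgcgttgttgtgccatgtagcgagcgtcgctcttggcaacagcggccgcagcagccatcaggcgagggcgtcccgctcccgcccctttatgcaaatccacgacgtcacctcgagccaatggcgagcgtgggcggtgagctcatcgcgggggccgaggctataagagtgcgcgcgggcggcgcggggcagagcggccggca
Ier2: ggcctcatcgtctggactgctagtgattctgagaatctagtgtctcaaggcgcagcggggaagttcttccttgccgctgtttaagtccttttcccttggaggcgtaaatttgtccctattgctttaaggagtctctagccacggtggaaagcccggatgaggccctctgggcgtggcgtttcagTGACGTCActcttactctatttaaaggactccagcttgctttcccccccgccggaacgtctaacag

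Around these factors, 167 other genes on 7 lists were examined: relatives of AP-1, other immediate early genes, their upstream signals, their feedback inhibitors and textbook AP-1 targets. A gene was represented by its brightest probe set; 111 were tested, 33 lay below the filter and the rest had no probe set with exactly 1 such symbol. Limma called 6 higher and 15 lower, beside a background of 16.3% of 9864 tested genes called, 9.22% lower and 7.09% higher. With scaling to the hybridization controls 0 of the 6 rises passed (limma adjusted p from 0.109 to 0.842), so they are rises relative to the other genes.

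**Figure D5:**
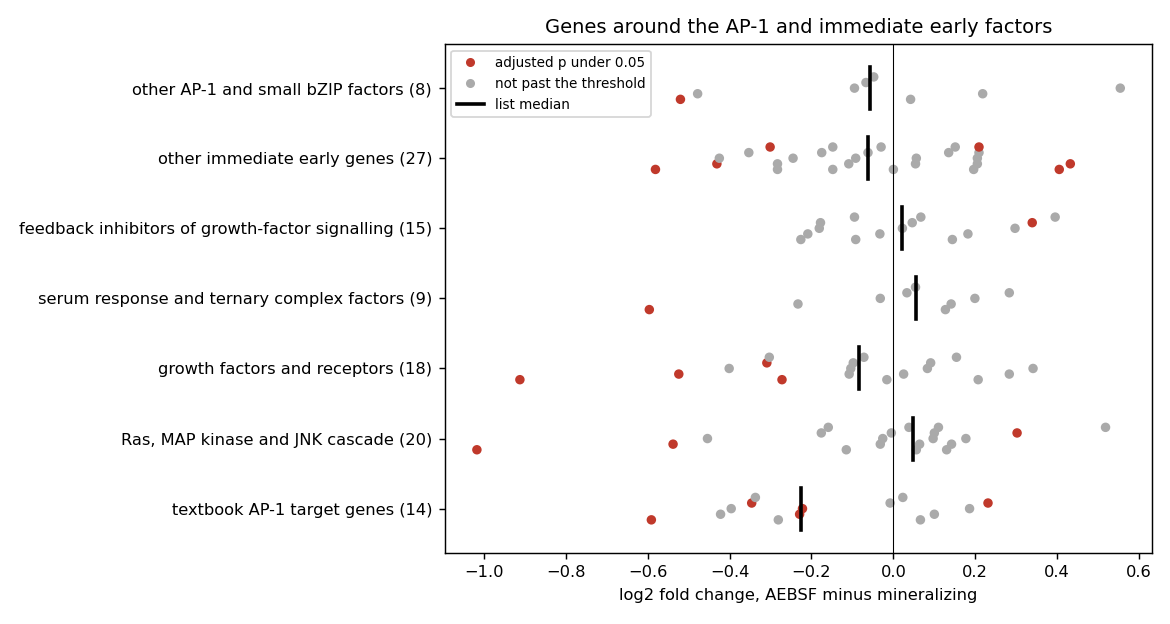
Log2 fold change (AEBSF minus mineralizing, x axis) of each tested gene on the 7 lists, with the number tested in brackets; red marks an adjusted p under 0.05 and the black bar the list median. The medians run from -0.23 for textbook AP-1 targets to 0.05 for the serum response factors.

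Among other AP-1 and small leucine zipper factors, 1 of 8 tested fell and 0 rose, 12.5% of those tested, with a median of -0.06 against 0.002 for all tested genes. The 1 was Crem, a cyclic AMP responsive factor named here after its value was seen, at 446 ± 32.0 in AEBSF cultures and 639 ± 32.1 in mineralizing cultures (SD, n = 3 each), a log2 fold change of -0.52 (SE 0.09, limma adjusted p = 0.00374). It passed under 17 of 17 alternatives, and 4 other Crem probe sets had values from -0.69 to -0.11, of which limma called 0. Mafg, a small Maf partner of AP-1 proteins, had 1072 ± 150 and 917 ± 71.8 (limma adjusted p = 0.183), passing without AEBSF culture 3 (0.0236). Jdp2, a repressor that dimerises with Jun, had 710 ± 75.7 and 757 ± 63.7, and Mafk had 580.2 ± 43.5 and 599 ± 26.8. Fosb, the remaining Fos gene, also named after its values were seen, was below the filter at 5.99 ± 4.5 and 26.6 ± 2.43.

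The other immediate early genes moved both ways: 3 of 27 tested rose and 3 fell, 22.2% of those tested, while 21 did not pass and the median was -0.06. Gadd45g, a growth-arrest and stress gene, fell to 2281 ± 189 in AEBSF cultures, against 3406 ± 167 in mineralizing cultures (log2 fold change -0.58 ± 0.07 SE, limma adjusted p = 0.000459). Its relative Gadd45b rose to 402 ± 16.1, against 304 ± 5.49 (0.41, SE 0.10, limma adjusted p = 0.0206). Klf2, a Krüppel-like factor related to Klf4, fell to 815 ± 41.6, against 1101 ± 95.1 (-0.43, SE 0.08, limma adjusted p = 0.00539), but 3 other Klf2 probe sets had -0.17, -0.30 and -0.30 and did not pass, and the mean of all its probe sets gave adjusted p = 0.1. Zfp36l1, which marks short-lived transcripts for decay, fell to 1528 ± 31.8, against 1883 ± 80.2 (-0.30, SE 0.06). Id1 and Id3, inhibitors of helix-loop-helix factors, rose by 0.43 and 0.21 on the log2 scale, Id1 to 1592 ± 170 against 1176 ± 47.8. Id3, named after its value was seen, passed narrowly (limma adjusted p = 0.0496) and no longer passed when mineralizing culture 1, 2 or 3 (0.128, 0.121 and 0.109) or AEBSF culture 2 or 3 (0.0995 and 0.133) was left out. Leaving out mineralizing culture 1, 2 or 3 lost the Gadd45b call (limma adjusted p = 0.0598, 0.0695 and 0.0574), as did leaving out AEBSF culture 2 (0.0591).

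Of 9 tested serum response and ternary complex factors 1 fell and 0 rose, 11.1% against the background of 16.3%, with a median of 0.05. SRF itself (Srf) had 1164 ± 105 in AEBSF cultures and 1129 ± 187 in mineralizing cultures (limma adjusted p = 0.794), and the coactivator Ep300 had 2090 ± 256 and 1825 ± 264. Elk4, a ternary complex factor, had 2731 ± 190 and 2496 ± 56.0 (log2 fold change 0.13, limma adjusted p = 0.199), while another of its probe sets, 1396356_at, fell by 0.23 on the log2 scale (adjusted p = 0.035). The 1 fall was Elk3, a ternary complex factor that can repress, at 217 ± 19.0 and 327 ± 13.1 (-0.60, SE 0.12, limma adjusted p = 0.00853); it was named after its value was seen, its other probe set had 0.21 (adjusted p = 0.523), and their mean gave adjusted p = 0.358.

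In the Ras, MAP kinase and JNK cascade limma called 2 of 20 tested genes lower and 1 higher, 15.0% and so near the background, and the median was 0.05. Map2k6, a kinase upstream of p38, fell to 76.4 ± 16.5 in AEBSF cultures, against 153 ± 9.92 in mineralizing cultures (log2 fold change -1.02 ± 0.21 SE, limma adjusted p = 0.00911), a call held under 16 of 16 alternatives. The size of this fall is less sure, since its AEBSF signals (71.87, 62.62 and 94.75) lay near the filter of 67.2. Adding 64 to each signal reduced it to -0.63 (limma adjusted p = 0.00717). Araf, a kinase of the ERK pathway, fell to 375 ± 30.3, against 546.5 ± 65.9 (-0.54 ± 0.11 SE, limma adjusted p = 0.00975), but another probe set had 0.06 and the mean of both did not pass (adjusted p = 0.14). Ptpn11, the phosphatase SHP2 that passes signals from growth-factor receptors, rose to 3492 ± 341, against 2836 ± 334 (0.30, SE 0.09, limma adjusted p = 0.0434) although its groups overlapped. It did not pass when mineralizing culture 1 or 2 (adjusted p = 0.115 and 0.163) or AEBSF culture 2 or 3 (0.126 and 0.0944) was left out.

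Growth factors and their receptors gave 4 falls and 0 rises among 18 tested, 22.2% of those tested, with a median of -0.08. Fgf1, an acidic fibroblast growth factor, fell to 85.0 ± 12.2 in AEBSF cultures, against 159 ± 1.53 in mineralizing cultures (log2 fold change -0.91 ± 0.19 SE, limma adjusted p = 0.00878), a call that held under 16 of 16 alternatives. Its AEBSF signals also lay near the filter of 67.2, and adding 64 to each signal reduced the fall to -0.58 (limma adjusted p = 0.00714). Tgfa, a ligand of the EGF receptor, fell to 593.5 ± 30.6, against 868 ± 207 (-0.52, SE 0.14, limma adjusted p = 0.0264). It did not pass without mineralizing culture 1, which brought it to -0.34 (0.0826), nor without mineralizing culture 2 (0.061) or AEBSF culture 1 or 2 (0.0569 and 0.0689), and its other probe set had -0.30 (adjusted p = 0.156). The receptors Igf1r and Fgfr2 fell by 0.31 and 0.27 on the log2 scale. Other probe sets of both did not pass (-0.003 for Igf1r; 0.06 and -0.34 for Fgfr2), and the Igf1r call was lost without mineralizing culture 1 or 3 (limma adjusted p = 0.0551 and 0.0574) and the Fgfr2 call without mineralizing culture 1 (0.0504).

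The list of feedback inhibitors and restraints of growth-factor signalling also holds Sos1, which activates Ras and is no inhibitor. Of the 15 tested genes of this list 1 rose and 0 fell, a share of 6.67% with a median of 0.02. The 1 was Dusp7, an ERK phosphatase named after its value was seen, at 769 ± 9.97 in AEBSF cultures and 609 ± 39.3 in mineralizing cultures (log2 fold change 0.34, SE 0.08, limma adjusted p = 0.0157), lost without mineralizing culture 2 or 3 (0.0654 and 0.0589). The 3 brightest genes of the list did not pass: Rasa1, a GTPase activator of Ras, with 1302 ± 112 and 1240 ± 18.4, Sos1, the exchange factor of Ras that ERK restrains, with 1474 ± 55.1 and 1576 ± 90.2, and Tob1, an antiproliferative protein, with 1273 ± 70.0 and 1440 ± 83.4. Tob1 passed with scaling to the hybridization controls (limma adjusted p = 0.0265).

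Textbook targets of AP-1 gave 4 falls and 1 rise among 14 tested, 35.7% of those tested, with a median of -0.23. Beside this, 16.3% of all tested genes were called, 9.22% lower and 7.09% higher. Calls also rose with signal, from 1.61% in the dimmest 10% of probe sets to 24.1% in the brightest 10%. The share for the targets was not adjusted for signal. Of the 24 listed, 8 lay below the filter and 2 had no probe set. Those below it, named after their values were seen, were Mmp3, Mmp9, Mmp10, Plau, Il6, Ccl2, Lox and Mt1. Mmp13 and Plaur, also so named, were among the 9 tested that did not pass. Vim, the intermediate filament vimentin, fell to 2799 ± 103 in AEBSF cultures, against 4217 ± 157 in mineralizing cultures (log2 fold change -0.59 ± 0.06 SE, limma adjusted p = 9.61e-05), which held under 17 of 17 alternatives. Ccnd1, the cyclin that Jun is known to raise for entry into the cell cycle, fell to 599 ± 34.6, against 761 ± 16 (-0.35 ± 0.08 SE, limma adjusted p = 0.0144), and of its other probe sets 1 fell by 0.51 while 1 had -0.07 and did not pass (adjusted p = 0.774). Gja1, the gap junction protein connexin 43, fell to 6075 ± 201, against 7119 ± 157 (-0.23, SE 0.05), and its other probe set fell by 0.46. The factor Ets2 fell to 1064 ± 48.6, against 1240 ± 30.1 (-0.22 ± 0.07 SE, limma adjusted p = 0.0419), and Odc1, which starts polyamine synthesis, rose to 8374 ± 187, against 7138 ± 256 (0.23, SE 0.05). Calls lost without 1 array were Ccnd1 without mineralizing culture 2 or 3 (limma adjusted p = 0.0561 and 0.0521), Gja1 without mineralizing or AEBSF culture 1 (0.0531 and 0.0515) and Odc1 without mineralizing culture 2 (0.0716). Ets2 did not pass when mineralizing culture 1, 2 or 3 (0.146, 0.0918 and 0.109) or AEBSF culture 1 or 3 (0.0978 and 0.0856) was omitted.

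The genes whose pattern over the 6 arrays lay nearest to that of Fos 1375043_at, the largest of the 3 called falls, were Man2b1, Fundc2 and Mthfd2l, with Pearson's r of 0.997, 0.997 and 0.996 over 6 arrays among 9855 genes. Man2b1, a lysosomal mannosidase, had 1096 ± 70.2 in AEBSF cultures and 1584 ± 111 in mineralizing cultures, and Fundc2 had 2316 ± 43.5 and 2822 ± 72.6 (SD, n = 3 each). With 6 arrays in 2 groups, such values describe the shared difference between groups and arrays and nothing further.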

How the data were processed

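RNA from 6 cultures was measured on 1 Affymetrix rat array each. The deposited table gives the intensity of each probe set as the MAS5 signal, from GCOS by the submitters' processing notes, and is the deposited unit used throughout. The sources used here give no software version, scaling target or detection calls. All values were positive and linear, and the mean without the lowest and highest 2% was nearly equal on all arrays, which fixes the overall level of each. Groups and culture numbers came from the sample titles. Symbols of 20758 of 20826 probe sets with exactly 1 symbol were updated through Entrez identifiers to RefSeq GRCr8.

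Log2 signals with no added constant were fitted with lmFit and trended eBayes of limma 3.58.1 under R 4.3.3, contrast AEBSF minus mineralizing, over 18625 probe sets above the 40th percentile of mean signal, with Benjamini-Hochberg adjustment over all of them. The unadjusted p was under 0.05 for 5290 of these. The fit was tested on simulated data. Within-array differences were compared by exact permutation tests (scipy 1.17.1). Precision is limited by 3 arrays a group.

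The genes and lists were chosen with earlier results of these data known. From each list the text names the 5 called genes that changed most or, with fewer than 2 calls, the 3 brightest tested genes; any other is marked. Likeness was taken to the called member with the largest change. Alternatives were other normalizations, added constants of 16 or 64, other filters and variance priors, a replicate block and leaving out each array. Same-numbered cultures did not deviate together (r = 0.011, -0.119 and -0.036), so the numbers were not taken as pairs.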

Additional observations from a re-analysis of the deposited data

How the results depend on the processing

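The 12 member probe sets gave 0 rises under all 16 alternatives, and 1 to 4 falls when 1 array was left out, 5 with scaling to the hybridization controls and 0 with the constant variance prior. Over all tested probe sets the rises were 489 to 997 and the falls 714 to 1260 without 1 array, 90 and 2670 with the hybridization scaling, 285 and 600 with the constant prior, and rises were 710 with no filter. The 3 differences between Jun probe sets kept their sign under 9 of 9 alternatives. With the replicate block, which changed a call of Fos 1375043_at (adjusted p = 0.0839), Ets2 (0.0857), Id3 (0.0723) and Ptpn11 (0.0537), 2 members fell, and 0 of the 3 AEBSF cultures correlated best with the mineralizing culture of their own number.

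Without 1 array, the lists gave these ranges. Rises were 0 to 1 for the AP-1 relatives, 1 to 3 for immediate early genes, and 0 to 1 each for feedback inhibitors, the MAP kinase cascade and AP-1 targets. Falls were 1 to 2 for serum response factors, 1 to 4 for growth factors and 2 to 4 for AP-1 targets. With hybridization scaling, rises were 0 for immediate early genes, feedback inhibitors, the cascade and targets, and falls were 8 for immediate early genes, 2 for feedback inhibitors and 2 for serum response factors. With the constant prior, rises were 1 for immediate early genes and 0 for feedback inhibitors, the cascade and targets, and falls 1 each for growth factors, the cascade and targets. The cascade had 0 rises with the replicate block or no filter, and targets 0 rises with median centring. With the filter at the 60th percentile falls were 5 for immediate early genes and 1 for the cascade, and with probe sets averaged per gene 0 for serum response factors, 2 for growth factors and 1 for the cascade.

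Sign changes touched only values that had not passed. Without 1 array, log2 fold changes ran from -0.271 to 0.043 for Fosl1 (0.018 without AEBSF culture 3), from -0.284 to 0.101 for Ier2 (0.001 without mineralizing culture 2), from -0.031 to 0.337 for Jun 1374404_at, from -0.097 to 0.011 for Mafk and from -0.079 to 0.163 for Srf (-0.009 without AEBSF culture 3). With hybridization scaling Jund became -0.071, Elk4 -0.041, Rasa1 -0.101 and Srf -0.115. Beyond the stated construction of each alternative the cause was not tested. Signals near 67.2 limit Fosl1, Fosl2 and Junb, and in AEBSF cultures Map2k6 and Fgf1. The 4 member probe sets below 67.2 were not compared.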

Other observations

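Genes of the immediate early and feedback lists outside the naming rule, picked here after their values were seen, lay on both sides of 0 without passing. Over all tested genes of these lists, 16 immediate early genes had values below 0 and 11 above. On the feedback list, which includes Sos1, 7 lay below and 8 above. Ccn1, a matricellular protein and classical serum-induced transcript, had 736.5 ± 64.5 in AEBSF cultures and 896 ± 75 in mineralizing cultures (SD, n = 3 each), a log2 fold change of -0.28 with SE 0.09 (limma adjusted p = 0.0553). Every AEBSF value lay below every mineralizing value. Its relative Ccn2 had 359 ± 18.7 and 425 ± 7.89, also without overlap (limma adjusted p = 0.114). Myc, the growth-promoting factor, had 4292 ± 126 and 4849 ± 272 (limma adjusted p = 0.0617), and Ier3, a survival factor of the early response, had 378 ± 59.6 and 478 ± 8.22 (limma adjusted p = 0.0677). Dusp1, the phosphatase that ends MAP kinase signalling, had 1138 ± 172 and 1312 ± 159, with overlapping groups (limma adjusted p = 0.228). In the other direction, Dusp2, a nuclear MAP kinase phosphatase, had 224 ± 12.4 and 171 ± 19.5 (log2 fold change 0.40, limma adjusted p = 0.094), Errfi1, an inhibitor of the EGF receptor, had 287 ± 21.6 and 234 ± 29.4 (0.30, limma adjusted p = 0.169), and Zfp36, which marks transcripts for decay, had 348 ± 5.85 and 303 ± 35.8 (0.20, limma adjusted p = 0.277), each with no overlap. Nr4a1 had 388.5 ± 26.9 and 349.7 ± 18.6 and Gadd45a 331 ± 15.6 and 292 ± 52.2, both overlapping. Groups that do not overlap were found in 32.7% of all tested probe sets, 16.5% with AEBSF lower and 16.2% with AEBSF higher.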
